A study of Mus musculus with 6 samples.

Results

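The genes described here encode the machinery of MHC class II antigen presentation, and were taken from the deposited table by gene name. They are H2-Aa, H2-Ab1, H2-Eb1, Cd74, H2-DMa, H2-DMb1 and Ciita, 7 of the 27458 genes listed. RNA of primary mouse bone marrow macrophages was sequenced in 3 libraries from RKIP-/- mice (RKIP KO) and 3 from RKIP+/+ mice (RKIP WT). All 6 cultures received macrophage colony-stimulating factor (M-CSF), the growth factor under which macrophages form from marrow. RKIP, the Raf kinase inhibitor protein, is encoded by Pebp1. How the allele was made, the strain, the age and the sex of the mice are not given in the sources used here. The study asked how RKIP bears on macrophage differentiation, and the comparison of KO with WT is the only one in its design.

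Class II molecules are pairs of an alpha and a beta chain that carry peptides from endosomes to the cell surface for CD4+ T cells. The chains assemble on the invariant chain, encoded by Cd74, which fills the peptide groove until proteases cut it down to a short remnant. The DM pair, encoded by H2-DMa and H2-DMb1, takes that remnant out and lets peptides bind. Transcription of these genes depends on CIITA, the product of Ciita, which binds no DNA itself and docks on proteins assembled over the X and Y boxes of their promoters. Macrophages are known to hold little class II until interferon gamma induces Ciita, whereas dendritic cells and B cells express it constitutively.

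The promoters are shown first because the X and Y boxes are known as the sites through which CIITA acts on class II genes. The windows shown differ in which of the motif letters below they match. RefSeq promoters on GRCm38.p6 are shown for 4 of the 7 genes, H2-Aa, H2-Eb1, H2-DMa and H2-DMb1. The promoter of Cd74 was left out, and no entry was used for H2-Ab1 or Ciita. The last 150 bases before each start site are printed 5′ to 3′ on the gene's strand, with the motifs in capitals: GNAAC and TGATG with 3 bases of any kind between them for the X box, TGATTGG for the Y box, and TGACGTCA, the cyclic AMP response element, which is its own reverse complement.
H2-Eb1, chr17:34305717-34305866, plus strand: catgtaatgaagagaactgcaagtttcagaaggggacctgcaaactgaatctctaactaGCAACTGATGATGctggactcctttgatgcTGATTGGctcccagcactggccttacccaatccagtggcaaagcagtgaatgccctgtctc
H2-DMb1, chr17:34153041-34153190, plus strand: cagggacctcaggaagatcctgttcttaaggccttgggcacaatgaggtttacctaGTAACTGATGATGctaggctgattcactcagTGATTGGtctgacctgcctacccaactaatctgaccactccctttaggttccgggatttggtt
H2-Aa, chr17:34287824-34287973, minus strand: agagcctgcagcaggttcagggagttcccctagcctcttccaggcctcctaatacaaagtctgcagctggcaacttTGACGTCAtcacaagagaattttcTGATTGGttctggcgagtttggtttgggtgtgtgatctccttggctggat
H2-DMa, first of 2 listed starts, chr17:34122682-34122831, plus strand: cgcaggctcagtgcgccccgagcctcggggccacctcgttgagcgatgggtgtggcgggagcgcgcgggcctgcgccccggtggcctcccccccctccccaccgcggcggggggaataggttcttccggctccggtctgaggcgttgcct

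In H2-Eb1 the X box began 91 bases and the Y box 61 bases before the start site, with 17 bases between them. In H2-DMb1 the positions were 94 and 63 bases before the start, with 18 bases between. H2-Aa held the cyclic AMP element, which was searched as a part of the X box, 74 bases before its start. Its Y box began 50 bases before the start, with 16 bases between the element and the box. None of the motifs lay in either H2-DMa window. The printed H2-DMa window lies directly upstream of the start of Brd2 (chr17:34112023-34122619, minus strand). Starts of H2-DMa that were not listed were not searched, so the gene is not shown to lack these boxes. Over 32851 RefSeq promoters of 300 bases, searched on both strands, TGATTGG was found in 7.82%, TGACGTCA in 1.79% and the X box in 0.183%. The X box followed by the Y box on 1 strand, 10 to 25 bases apart, was found in 4 genes' promoters: H2-DMb1, H2-Eb1, H2-Ob and 1700048F04Rik. The motif letters were written with these promoters in view, and a match is a description of the letters only. A window without a match to the X box letters is not shown to lack an X box.

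Library totals ran from 63607276 to 70059042 estimated counts in KO libraries and from 53188659 to 55255365 in WT libraries. Pebp1 was at 0 FPKM (fragments scaled to transcript length and library size) in all 3 KO libraries, against 39.2, 33.2 and 39.0 FPKM in WT libraries 1, 2 and 3. Over 11636 genes whose mean reached 1 FPKM, edgeR's quasi-likelihood test placed 2364 higher and 2253 lower in KO after Benjamini-Hochberg adjustment at 0.05, the procedure behind every adjusted p given here unless another is named. Under limma on log2(FPKM + 1) the counts were 2770 higher and 1639 lower. The labels do not state whether replicate libraries came from different mice or culture dishes, and p-values therefore reflect only the variation among the 6 libraries, some of which may be technical. In bulk RNA, fewer cells of a type and less RNA per cell cannot be told apart. Log2 fold changes are KO over WT with an approximate standard error, and come from scaled counts, so they differ somewhat from ratios of FPKM means.

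Cd74, H2-Ab1 and H2-DMa fell in KO macrophages, by 1.60-fold, 1.53-fold and 1.24-fold. H2-Eb1 (log2 fold change -0.41) and H2-DMb1 (-0.03) did not pass the test, and no class II gene rose. The 3 lower genes are counted among the 5 of 7 whose mean reached 1 FPKM, in a comparison where 19.4% of all tested genes were called lower. H2-Aa and Ciita lay under that level and were read from the fit over all 27458 genes, where Ciita was 1.83-fold lower in KO and H2-Aa did not pass. The median log2 fold change of the 5 tested genes was -0.41, against -0.01 over all genes tested. When each library's trend with transcript length and GC content was taken out, Cd74 stayed past the threshold, the calls of H2-Ab1 and H2-DMa were lost, and the median of the 5 became -0.23, against 0.01 for all genes.

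**Figure D1:**
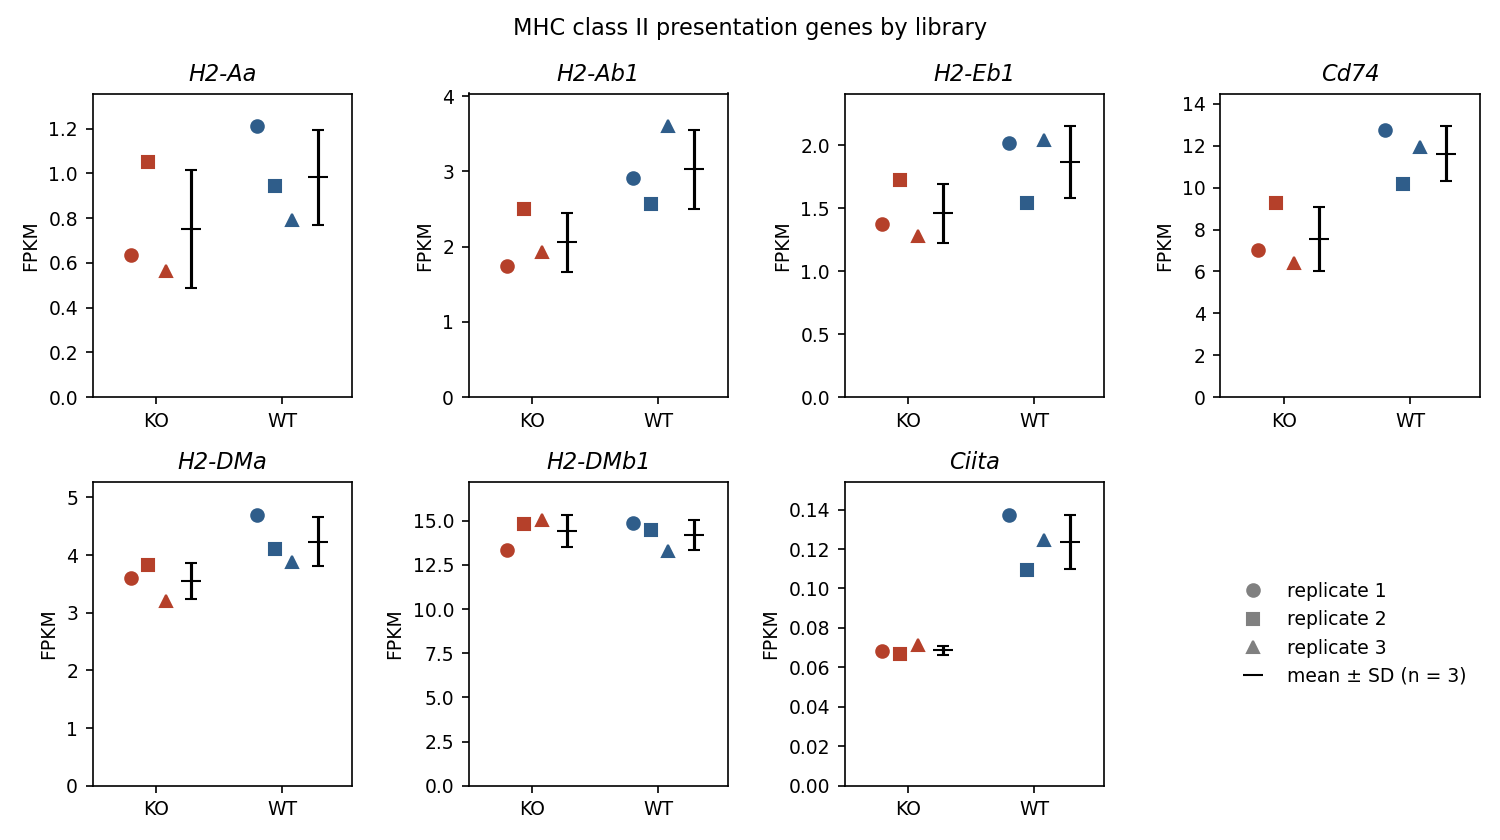
FPKM of the 7 class II presentation genes in each library, KO on the left and WT on the right of each panel, with the mean ± SD of 3 libraries beside the points; each panel has its own axis from 0. All KO libraries lie below all WT libraries for H2-Ab1, Cd74, H2-DMa and Ciita, whereas the groups overlap for H2-Aa, H2-Eb1 and H2-DMb1.

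By mean FPKM, the genes of the antigen-presenting chains lay between the 56.4th and the 66.9th percentile of the table. H2-Ab1, the beta chain of I-A, was at 1.75, 2.50 and 1.93 FPKM in KO libraries 1, 2 and 3, against 2.91, 2.57 and 3.60 FPKM in WT libraries 1, 2 and 3. All KO libraries lay below all WT libraries, as did 19.1% of the 11636 tested genes, and KO library 2 came close to WT library 2. The means were 2.06 ± 0.393 FPKM in KO and 3.03 ± 0.528 FPKM in WT (SD, n = 3 each), with a log2 fold change of -0.61 ± 0.17 (edgeR adjusted p = 0.0116). The call was lost without WT library 3 (-0.46, adjusted p = 0.0559) and with the length and GC correction (-0.37, adjusted p = 0.122). H2-Ab1 spans chr17:34257689-34269419 on the plus strand.

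H2-Aa, its alpha chain partner, was measured at 0.637, 1.05 and 0.565 FPKM in KO libraries, against 1.21, 0.942 and 0.792 FPKM in WT libraries. KO library 2 lay above WT libraries 2 and 3, so the groups overlapped. The log2 fold change was -0.41 ± 0.27 (edgeR without the filter, adjusted p = 0.371), which did not pass the test. About 154 fragments in KO and 171 in WT stood behind it, taking 4 estimated counts for each fragment. Without KO library 2 it was -0.74 (adjusted p = 0.0812). The gene lies at chr17:34282744-34287823 on the minus strand. The ratio of H2-Ab1 to H2-Aa in FPKM, the beta over the alpha chain, was 2.74, 2.38 and 3.42 in KO libraries and 2.40, 2.73 and 4.55 in WT libraries.

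H2-Eb1, the beta chain of I-E (chr17:34305867-34316674, plus strand), was at 1.38, 1.73 and 1.28 FPKM in KO libraries, against 2.02, 1.54 and 2.04 FPKM in WT libraries. KO library 2 exceeded WT library 2, and the other KO libraries lay below every WT library. The means of 1.46 ± 0.236 FPKM in KO and 1.87 ± 0.285 FPKM in WT (SD, n = 3 each) gave a log2 fold change of -0.41 ± 0.18 (edgeR adjusted p = 0.0934), which missed the threshold. Without KO library 2 the value was -0.54 (adjusted p = 0.0558).

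Cd74, the invariant chain gene, had the smallest adjusted p of the tested class II genes. It was at 7.01, 9.27 and 6.39 FPKM in KO libraries, against 12.8, 10.2 and 11.9 FPKM in WT libraries. No KO library reached a WT library, and KO library 2 was again the highest of its group and WT library 2 the lowest of the other. The log2 fold change was -0.68 ± 0.13 (edgeR adjusted p = 0.00168), and the length and GC correction made it -0.46 (adjusted p = 0.0156). The call held in all 18 alternative analyses that were counted. It was lost in a further fit, with the correction but without the filter (-0.50, edgeR adjusted p = 0.0597). Cd74 lies outside the class II region, at chr18:60803848-60812646 on the plus strand. Its ratio to H2-Ab1 in FPKM was 4.01, 3.71 and 3.31 in KO libraries and 4.39, 3.97 and 3.31 in WT libraries, a log2 difference of -0.08 (exact two-sided permutation test over libraries, p = 0.8).

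Of the DM pair, H2-DMa passed the test and H2-DMb1 did not. H2-DMa (chr17:34119541-34139101, plus strand) was at 3.60, 3.83 and 3.21 FPKM in KO libraries, against 4.70, 4.11 and 3.89 FPKM in WT libraries. The KO libraries all lay below the WT libraries, by a narrow margin between KO library 2 and WT library 3. The log2 fold change was -0.31 ± 0.10 (edgeR adjusted p = 0.0283), and this call was among the least stable: it held in 10 of 18 alternatives. It was lost when length and GC content were corrected for (-0.17, adjusted p = 0.187), with no filter on low values, under limma, and without KO library 1 (-0.33, adjusted p = 0.0526), KO library 3 (-0.24, adjusted p = 0.101) or WT library 1 (-0.23, adjusted p = 0.112). H2-DMa shares 360 of its 3448 annotated exonic bases with Brd2 on the opposite strand, a gene that averaged 28.5 ± 1.67 FPKM in KO and 26.8 ± 0.858 FPKM in WT. Whether counting used the strand is not given in the sources used here.

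H2-DMb1, the beta chain of DM, was the most abundant of the 7, at 13.4, 14.8 and 15.1 FPKM in KO libraries, against 14.9, 14.5 and 13.3 FPKM in WT libraries. The groups overlapped fully. The log2 fold change was -0.03 ± 0.07 (edgeR adjusted p = 0.767), and with the length and GC correction it was 0.20 ± 0.07 (adjusted p = 0.0550), so no direction is given for it. The gene (chr17:34153072-34160230, plus strand) is 87.7% identical to its neighbour H2-DMb2 over 1144 transcript bases, and reads shared by the copies may have been split between them by the authors' counting. Its promoter, printed above, carries the X and Y box pair, as that of H2-Eb1 does.

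Within each library, H2-DMb1 was set against the other class II genes, which needs no scaling between libraries. H2-DMb1 over Cd74 in FPKM was 1.91, 1.60 and 2.36 in KO libraries, against 1.16, 1.42 and 1.11 in WT libraries. H2-DMb1 over H2-DMa was 3.71, 3.88 and 4.70 in KO libraries, against 3.16, 3.52 and 3.41 in WT libraries. Every KO ratio exceeded every WT ratio for H2-DMb1 over Cd74, H2-DMa, H2-Ab1 and Ciita, with log2 differences of 0.66, 0.28, 0.58 and 0.87. Each had p = 0.1 in an exact two-sided permutation test, the smallest that 3 libraries against 3 allow, and 0.2 after Benjamini-Hochberg adjustment over the 8 ratios computed. H2-DMb1 over H2-Eb1 and over H2-Aa overlapped between the genotypes (p = 0.2 and 0.3, exact permutation test). No ratio passed at 0.05, a level that this test cannot reach with 3 libraries against 3. The ratios are a description, and do not tell which gene of a pair moved.

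Ciita, the master regulator of the set, was near the limit of detection. It was listed at 0.0681, 0.0666 and 0.0711 FPKM in KO libraries, against 0.137, 0.109 and 0.124 FPKM in WT libraries. All KO libraries lay below all WT libraries, which was so for 12.4% of all 27458 genes. About 36 fragments in KO (11 to 13 per library) and 55 in WT (16 to 20 per library) stood behind these values. In the fit without a filter, which called 8.23% of genes higher and 6.15% lower, the log2 fold change was -0.87 ± 0.22 (edgeR adjusted p = 0.0379). That call held in 3 of 15 alternatives, and leaving out any 1 library gave adjusted p from 0.0635 to 0.111 with log2 fold changes of -0.95 to -0.80. Corrected for length and GC content, the value was -0.87 (adjusted p = 0.0529). Ciita (chr16:10480059-10526426, plus strand) shares 329 of 9535 exonic bases with Dexi on the opposite strand, which averaged 1.45 ± 0.142 FPKM in KO and 1.40 ± 0.209 FPKM in WT.

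Of the remaining chain genes of the region, H2-DMb2 and H2-Ob were in the table, both with means under 1 FPKM. H2-DMb2, a second DM beta chain, was at 0.616, 0.998 and 0.645 FPKM in KO libraries, against 1.01, 0.975 and 1.09 FPKM in WT libraries (log2 fold change -0.47, edgeR without the filter, adjusted p = 0.260). H2-Ob, the beta chain of DO, which restrains DM, was at 0.156, 0.155 and 0.169 FPKM in KO libraries and 0.322, 0.245 and 0.213 FPKM in WT libraries. All KO values of H2-Ob were lower than all WT values, but its log2 fold change of -0.72 did not pass (adjusted p = 0.0857). H2-Eb2, H2-Ea, H2-Ea-ps and H2-Oa were not analysed here.

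**Figure D2:**
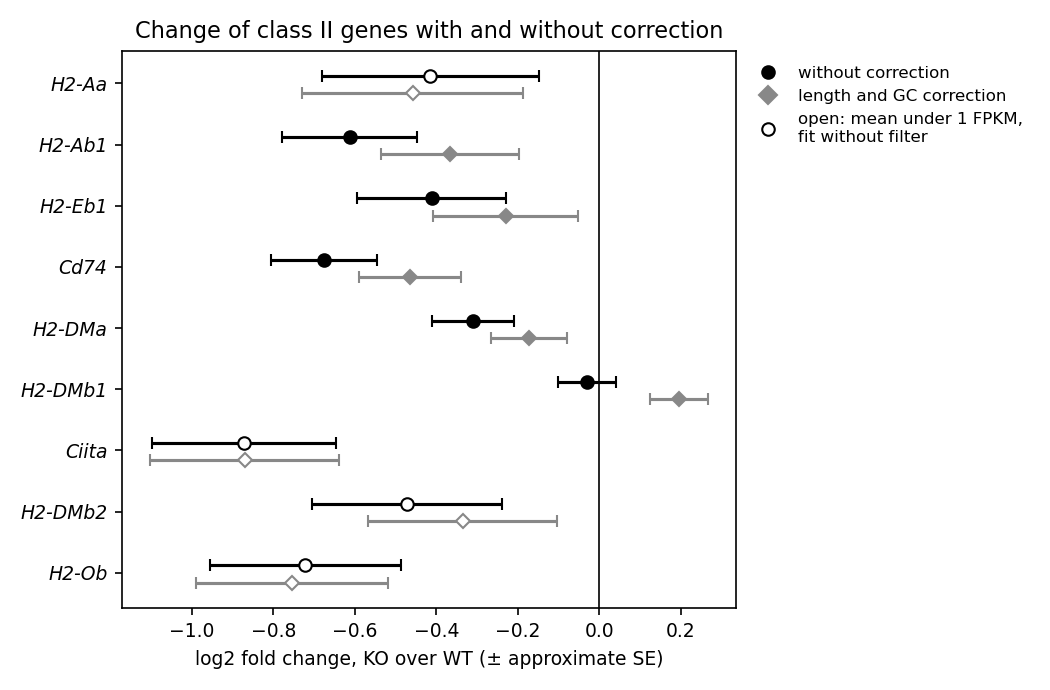
Log2 fold change, KO over WT, with its approximate standard error for the 7 genes and for H2-DMb2 and H2-Ob, without (circles) and with (diamonds) the length and GC correction; open symbols mark genes with a mean under 1 FPKM, read from the fit without a filter. The corrected values of the 5 tested genes lie to the right of the uncorrected ones by about the size of a standard error or more, and H2-DMb1 alone crosses 0.

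Fold changes in these libraries went with transcript length, and the tested class II genes are short, between 1212 and 2005 bases, which places them at the 13.5th to 27.2nd percentile of tested genes. Of the 1593 tested genes in that length range, 94 were called higher and 507 lower, so 31.8% were lower. Their median was -0.13 on the log2 scale and became 0.03 after the correction. The 3 of 5 class II genes called lower are to be read against that share as well as against the 19.4% of all genes. With the correction 16.6% of tested genes were called higher and 14.8% lower in KO, and Cd74 was the 1 class II gene among them. H2-Aa, at 3223 bases, and Ciita, at 6007 bases, are longer, and their fold changes hardly moved with the correction (-0.46 for H2-Aa and -0.87 for Ciita).

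The order of levels per length was the same in both genotypes: H2-DMb1, Cd74, H2-DMa, H2-Ab1, H2-Eb1, H2-Aa and then Ciita. Neighbours in this order did not overlap within a genotype, and the closest were H2-Ab1 and H2-Eb1 in KO, whose lowest and highest libraries stood at 1.75 and 1.73 FPKM. By mean FPKM the genes ran from the 36.3rd percentile of the table for Ciita to the 89.1st for H2-DMb1. Taking in H2-DMb2 and H2-Ob, KO library 2 was the highest KO library for 6 of 9 class II genes and KO library 3 for the other 3. For Cd74, KO library 2 stood at 79.7% of the WT mean, against 60.3% and 54.9% in KO libraries 1 and 3. In WT, library 1 was the highest for 6 of 9 genes and library 3 for the others.

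H2-DMa, H2-DMb1, H2-Ab1, H2-Aa and H2-Eb1 lie within 197 kb of chromosome 17, a stretch that also holds genes of class I peptide supply. It held 14 genes whose mean reached 0.1 FPKM, of which 8 were tested, 0 were called higher and 5 lower, beside 19.4% lower of all tested genes and 31.8% of those in the length range above. The lower ones were H2-DMa and H2-Ab1, whose calls were lost with the length and GC correction, and Psmb8, Psmb9 and Tap2. Psmb8, a catalytic subunit of the immunoproteasome, averaged 14.3 ± 0.665 FPKM in KO and 18.0 ± 0.842 FPKM in WT (log2 fold change -0.38, edgeR adjusted p = 0.000178). Psmb9, another such subunit, had a log2 fold change of -0.28 (adjusted p = 0.00952), and Tap2, a subunit of the peptide transporter, one of -0.27 (adjusted p = 0.0220), whereas Tap1 did not pass (-0.12, adjusted p = 0.127).

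**Figure D3:**
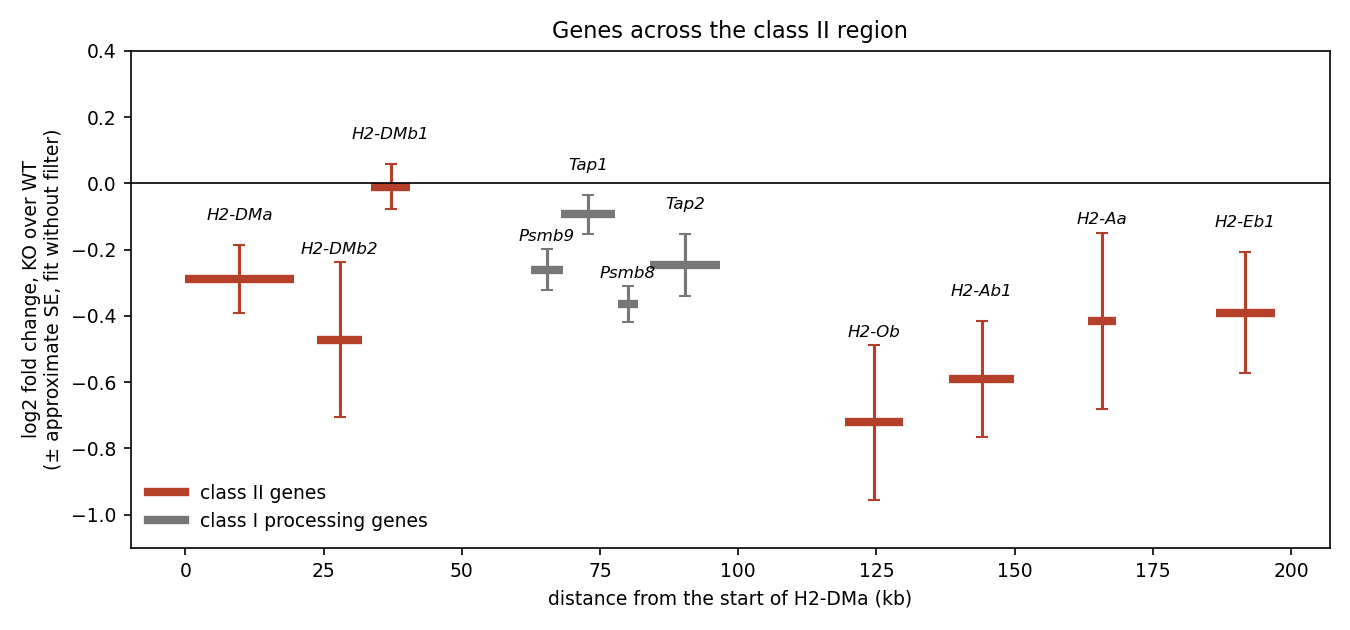
Log2 fold change, KO over WT, from the fit without a filter, against the distance from the start of H2-DMa, for the genes of the class II region whose mean reached 0.2 FPKM; horizontal bars span each gene and vertical bars are approximate standard errors. H2-DMb1 lies at -0.01 between H2-DMb2 and Psmb9, and the other class II genes lie between -0.29 and -0.72.

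Genes that act on class II molecules after synthesis moved in both directions: of 17 tested, 5 rose and 6 fell, beside 20.3% higher and 19.4% lower of all tested genes, and their median was -0.07 on the log2 scale. Marchf1, the ubiquitin ligase that sends surface class II to lysosomes, rose to 12.6 ± 0.467 FPKM in KO, against 8.17 ± 0.268 FPKM in WT (log2 fold change 0.58, edgeR adjusted p = 4.25e-06). Its relative Marchf8 rose by less (0.21), and the clathrin adaptor subunit gene Ap1b1 was at 81.7 ± 3.88 FPKM in KO and 54.5 ± 2.59 FPKM in WT (0.53, adjusted p = 1.45e-05). Ctsc, a lysosomal protease gene, rose (0.24), as did Sppl2a, whose product clears the membrane stub left from the invariant chain (0.23), although Sppl2a was at -0.02 with the length and GC correction. Ctss, the protease that makes the last cuts in the invariant chain, fell to 744 ± 16.8 FPKM in KO, against 915 ± 71.9 FPKM in WT (-0.35, adjusted p = 0.000346). Ifi30, the lysosomal thiol reductase GILT, was at 98.1 ± 3.94 FPKM in KO and 125 ± 2.04 FPKM in WT (-0.40, adjusted p = 5.28e-05), a call lost with the correction (-0.07, adjusted p = 0.178). Ctsd (-0.17), Cst3 (-0.22), Ctsh (-0.17) and Cd63 (-0.13) were the other 4 that were lower. With the correction Cst3 turned to 0.11 and the calls of Ctsd, Ctsh and Cd63 were lost. Ctsl (-0.13), Ap2a1 (-0.11), Lgmn (-0.07) and Arl14ep (0.13) did not pass, although Ctsl did with the correction (-0.30, adjusted p = 0.00110). Of the 17 tested, 6 were higher and 3 lower with the correction.

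The proteins that assemble on the X and Y boxes, and the coactivators that CIITA recruits, were also counted: of 12 tested genes 5 rose and 1 fell, in a comparison with 20.3% of all genes higher and 19.4% lower. Rfxank, a subunit of the RFX complex that binds the X box, fell to 2.89 ± 0.198 FPKM in KO, against 3.44 ± 0.0444 FPKM in WT (log2 fold change -0.31, edgeR adjusted p = 0.0138). The other RFX subunits, Rfx5 (0.17, adjusted p = 0.101) and Rfxap (0.21, adjusted p = 0.121), did not pass, nor did the Y box factor genes Nfya (-0.06) and Nfyc (-0.15). With the length and GC correction Rfxap passed (0.33, adjusted p = 0.0237). The histone acetyltransferase genes Crebbp and Kat2b rose, Crebbp to 5.41 ± 0.407 FPKM in KO, against 3.69 ± 0.127 FPKM in WT (0.50), and Kat2b to 11.9 ± 0.673 FPKM in KO, against 8.43 ± 0.347 FPKM in WT (0.45). Creb1 (0.40), Ep300 (0.20) and Ctcf (0.14) also rose, and with the correction Creb1 (0.07) and Ep300 (0.03) no longer passed.

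On the route from interferon gamma to Ciita, 4 of 12 tested genes rose and 2 fell, beside 20.3% higher and 19.4% lower of all tested genes. The receptor chain gene Ifngr1 rose to 77.5 ± 3.15 FPKM in KO, against 65.1 ± 2.32 FPKM in WT (log2 fold change 0.20, edgeR adjusted p = 0.00413), and its kinase gene Jak1 also rose (0.23, adjusted p = 0.00120). Prdm1, whose product BLIMP1 is known to repress Ciita in plasma cells, was at 2.05 ± 0.0683 FPKM in KO and 1.40 ± 0.108 FPKM in WT (0.50, adjusted p = 0.00233). Jak2 (0.14) rose and Usf2 (-0.15) fell, both with calls that several alternatives lost. Irf1 (-0.13, adjusted p = 0.128), Irf8 (0.06), Spi1 (-0.10) and Usf1 (0.07) did not pass. With the length and GC correction Usf1 passed (0.19, adjusted p = 0.0120).

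Of 9 tested genes for contact with T cells, 1 rose and 2 fell, beside 20.3% higher and 19.4% lower of all tested genes, and with the length and GC correction 3 were higher and 0 lower. Cd86, a ligand of CD28, was at 1.71 to 1.96 FPKM in KO libraries, against 1.26 to 1.33 FPKM in WT libraries (log2 fold change 0.43, edgeR adjusted p = 0.0158), and without KO library 2 its adjusted p was 0.0583. Cd40 (-0.34, adjusted p = 0.0365) and Lgals9 (-0.29) were lower, and neither passed with the length and GC correction (-0.31 for Cd40, -0.09 for Lgals9). Cd80 (-0.05), Icosl (0.15), Cd48 (-0.03) and Icam1 (-0.02) did not pass, although Icosl (0.23, adjusted p = 0.0450) and Cd48 (0.12, adjusted p = 0.0168) passed with the correction. For MHC class I, 0 of 17 tested genes rose and 8 fell, beside 20.3% higher and 19.4% lower of all tested genes, and the median of the log2 fold changes was -0.16, against -0.41 for the class II genes. Besides Psmb8, Psmb9 and Tap2 these were Calr (-0.42), Pdia3 (-0.16), H2-T23 (-0.22), Psmb10 (-0.23) and H2-K1 (-0.16). H2-Q4 (-0.13), Erap1 (0.11) and B2m (-0.09), the light chain of class I, did not pass. With the correction 2 class I genes were higher and 6 lower, and the median was -0.09. The calls of H2-K1 (-0.01), Psmb10 (0.00) and H2-T23 (-0.13, adjusted p = 0.0541) were lost with it. B2m was among the 2 that were higher (0.11, adjusted p = 0.0305).

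**Figure D4:**
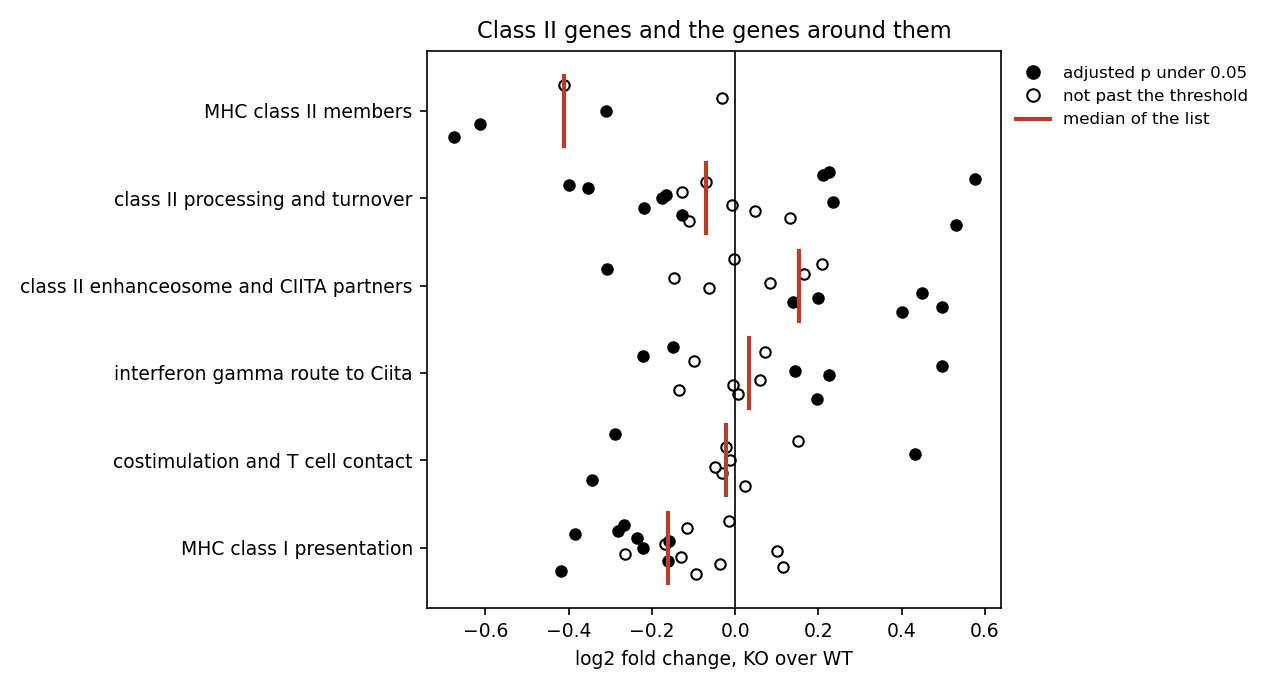
Log2 fold change, KO over WT, of each tested gene in 6 lists (rows); filled points passed the adjusted threshold of 0.05, open points did not, and red lines mark the median of a list. The class II genes have a median of -0.41, class I genes one of -0.16, and the processing genes spread on both sides of 0.

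Markers of the labelled cell type were abundant: the summed level of 12 macrophage markers was 19757 to 20081 FPKM in KO libraries and 21991 to 23564 FPKM in WT libraries, most of it from Lyz2. Csf1r, the M-CSF receptor gene (log2 fold change 0.30), and Adgre1 (0.35) were higher in KO, and C1qa (-0.35), C1qb (-0.28), C1qc (-0.30), Lyz2 (-0.27), Fcgr1 (-0.40), Cd14 (-0.20) and Cd68 (-0.15) were lower. Of the 12, 3 were higher and 7 lower, and with the length and GC correction 4 were higher and 2, C1qa and Fcgr1, were lower. Cd68 turned to 0.11 (adjusted p = 0.0463) and the calls of Lyz2, Cd14, C1qb and C1qc were lost, while the median log2 fold change of the list went to 0.01, against -0.18 without the correction. Of the markers of other marrow cells that express class II, 6 of 11 for dendritic cells and 7 of 11 for B cells had means under 0.2 FPKM. Dendritic cell markers summed to 49.4 to 57.6 FPKM in KO libraries and 46.6 to 48.0 FPKM in WT libraries, and 3 were tested, with Itgax (0.51) and Clec10a (0.52) higher in KO. Flt3, Dpp4, Clec9a and Cd209a were at 0 in at least 3 libraries, Cd209a in all 3 WT libraries and KO library 2, and Flt3 in all but WT library 3. B cell markers summed to 60.2 to 67.8 FPKM in KO libraries and 40.5 to 45.7 FPKM in WT libraries, with Ighm (0.84) and Ebf1 (0.39) higher and Cd22 (-0.74) lower among 4 tested. Pax5 was at 0 in KO libraries 2 and 3 and in WT libraries 2 and 3. Ighd was at 0 in all 3 WT libraries, against 0.0933, 0.0811 and 0.0393 FPKM in KO libraries 1, 2 and 3. About 8 fragments stood behind Ighd in KO (6.28, edgeR without the filter, adjusted p = 0.0423). The dendritic cell and B cell sums were both highest in KO library 2, the KO library with the most Cd74. Within WT the B cell sum was highest in library 2, the WT library with the least Cd74. The dendritic cell sum in WT libraries 1, 2 and 3 was 48.0, 48.0 and 46.6 FPKM, and WT library 1 had the most Cd74. Single genes weighed heavily in the sums. Fscn1 averaged 30.9 FPKM in KO and 32.9 FPKM in WT, and Ighm 41.8 FPKM in KO and 22.5 FPKM in WT. The part of these markers in the class II values was not tested.

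Neutrophil markers moved with genotype by far more than the class II genes did. The 13 in the table summed to 16.8 to 17.6 FPKM in KO libraries and 86.6 to 174 FPKM in WT libraries, with WT library 1 the lowest WT library. Of 9 tested, 8 fell, among them S100a9 (log2 fold change -6.24), S100a8 (-5.61), Retnlg (-6.90), Ltf (-5.20), Ngp (-4.81), Lcn2 (-4.66), Camp (-2.26) and Mmp8 (-0.93). Ly6g was at 0 in all 3 KO libraries, against 0.678, 0.971 and 0.503 FPKM in WT libraries 1, 2 and 3. In the fit without a filter it was lower in KO (-8.54, edgeR adjusted p = 0.00243). Elane was at 0 in KO library 3 and in WT libraries 1 and 3. WT library 1, with the lowest neutrophil marker sum of its group, had the group's highest Cd74, H2-Aa, H2-DMa, H2-DMb1 and Ciita. WT library 3, with the highest sum, had the group's highest H2-Ab1 and H2-Eb1. Not every marker followed the sum. In WT libraries 1, 2 and 3, S100a9 was at 23.3, 72.1 and 75.6 FPKM, and Ltf at 6.98, 6.93 and 6.93 FPKM. T and NK cell markers summed to 1.58 to 2.06 FPKM in KO libraries and 1.66 to 2.02 FPKM in WT libraries, with Cd3d, Cd3g and Cd8a at 0 in at least 3 libraries. The part of these cells in the class II values was not tested.

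The tested genes whose levels ran most like the class II genes over the 6 libraries were Morn4 (Pearson r = 0.997), Nup43 (0.996), H2bc12 (0.993), Snhg18 (0.991) and Sorbs3 (0.989). Likeness was measured to the mean standardised log2 CPM (counts scaled to library size) of the 5 tested class II genes, as a description over 6 libraries that share their genotypes and depth. Morn4 was at 1.06, 1.44 and 1.14 FPKM in KO libraries, against 2.02, 1.58 and 1.64 FPKM in WT libraries. Like Cd74, it was highest in library 2 of the KO group and lowest in library 2 of the WT group.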

How the data were processed

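RNA of 3 RKIP KO and 3 RKIP WT libraries of M-CSF bone marrow macrophages was selected with oligo(dT) and prepared with dUTP strand marking, per the labels' protocols. The submitters' processing notes name cutadapt 1.9, HISAT2 2.0.4 and StringTie 1.3.4d, with no role or order. The authors deposited FPKM values and estimated counts, rounded to whole numbers, for 27458 genes, of which 27382 IDs matched GENCODE M21 (GRCm38). The genome build is not given in the sources used here. The value 4 occurred 5769 times among the deposited estimated counts, against 3204 for 3 and 2041 for 5, so about 4 stood for 1 fragment.

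KO was compared with WT with edgeR 4.0.16 in R 4.3.3 (quasi-likelihood, two-sided, TMM scaling), fitted to the estimated counts of 11636 genes whose mean reached 1 FPKM, with Benjamini-Hochberg adjustment at 0.05. Approximate standard errors divide the size of the log2 fold change by the root of the F statistic. The tests were tried on simulated counts first. The length and GC correction fitted each library's trend by loess (span 0.3) and entered it as an offset. Replicates were compared pairwise, and chi-square over degrees of freedom was 3.65 to 7.44, above sampling noise, so each library counts once. DESeq2 1.42.0, limma 3.58.1, other filters and scalings, counts divided by 4, a replicate block and leaving out each library were alternatives. Transcripts were aligned to each other with minimap2 2.31, and promoters came from RefSeq on GRCm38.p6. Python 3.11.15, pandas 2.3.3, scipy 1.17.1 and matplotlib 3.10.9 were used.

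The 7 genes and the gene lists were chosen with earlier results of these data known. Named are the 7 genes, other chain genes of the region, list genes past the threshold and up to 4 further genes of a list with the smallest p, the 5 genes most alike in pattern, Pebp1, and overlapping genes. Of the marker lists, only genes past the threshold or at 0 are named. A few genes of the lists are not reported here by name.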

Additional observations from a re-analysis of the deposited data

How the results depend on the processing

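Over 18 alternatives the count of genes higher in KO ran from 1915 to 2770 and that of genes lower from 1632 to 2622. No tested class II gene was called higher in any of them. The count of the 5 that were lower was 3 in the reported fit and was 1, Cd74, with no filter on low values, with the length and GC correction, and with the replicate block together with that correction. It was 2 under both limma fits, and without KO library 1, KO library 3, WT library 1 or WT library 3. With a filter at a mean of 3 FPKM, which H2-Ab1 and H2-Eb1 do not reach, it was also 2. The median log2 fold change of the 5 was -0.22 under limma on log2(FPKM + 1), where the pseudocount shrinks low genes. H2-DMb1 changed sign to 0.021 under limma with a pseudocount of 1 and 0.022 with 0.1, to 0.20 with the length and GC correction and 0.20 with the replicate block and that correction, and ran from -0.073 to 0.011 when 1 library was left out. Cd74 passed in 18 of 18 alternatives (log2 fold change -0.84 to -0.46, adjusted p up to 0.0231), H2-Ab1 in 13 of 17, H2-DMa in 10 of 18, Ciita in 3 of 15, H2-Eb1 in 0 of 17 (adjusted p from 0.0507) and H2-Aa in 0 of 16, and each of these 6 kept its sign. The fit with the length and GC correction and no filter is not among the 18 for Cd74, and there it did not pass (edgeR adjusted p = 0.0597). Replicate numbers did not pair the libraries (correlations of deviations 0.02, 0.19 and -0.04). With the replicate block 2407 genes were higher and 2294 lower, 3 class II genes stayed lower with a median of -0.41, and the adjusted p of Ciita was 0.109. Ciita rests on 36 fragments in KO and 55 in WT, which limits its precision. The causes of the lost calls were not tested.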
